A study of Mus musculus with 6 samples.

Results

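Alveolar type 1 epithelial cells (AEC1s) are the thin, spread cells that cover most of the gas exchange surface of the lung. They form the barrier between air and capillary together with the endothelium and a shared basement membrane, and they send vascular growth signals to that endothelium. Alveolar type 2 epithelial cells (AEC2s) make surfactant, and they are the progenitors that renew both AEC2s and AEC1s. ZIP8, the product of Slc39a8, is a membrane transporter that brings zinc into cells.

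Here AEC1s were described in single-cell RNA sequencing of mouse lung, a droplet method (10x Genomics) that reads the 3′ end of RNA, on lung cells enriched by magnet as CD45-, so largely without leukocytes. There were 4 control libraries, from littermate controls whose alleles were not named, and 2 libraries labelled Zip8 knockout, from SFTPC-CreER Rosa26-tdTomato Zip8 fl/fl mice. All mice were C57BL/6 by the labels, backcrossed to C57BL/6J by the study's methods, were 10 to 12 weeks old, and had received 4 doses of tamoxifen 2 weeks before. Cre was driven by the promoter of the surfactant gene Sftpc, so recombination was aimed at AEC2s and at the cells that come from them. The number of mice behind each library was not stated, and p-values below measure the spread between libraries, which may be partly technical. A unique molecular identifier (UMI) stands for 1 captured RNA molecule. The 6 libraries held 105774150, 114018446, 118771907, and 93852253 UMIs in control libraries 1 to 4. Zip8 knockout libraries 1 and 2 held 107957330 and 103337822.

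A barcode was kept with at least 500 genes, at least 1000 UMIs, and under 15% mitochondrial UMIs. An AEC1 was a kept barcode with a UMI of at least 3 of Ager, Hopx, Rtkn2, and Akap5 and no UMI of the AEC2 gene Lamp3, the leukocyte gene Ptprc, the endothelial gene Cdh5, the fibroblast gene Col1a2, or the ciliated cell gene Foxj1. The members were thus chosen by their measured values of these 9 genes, whose levels are not results. The rule found 154 AEC1s among 44096 kept barcodes. Control libraries 1 to 4 held 38, 7, 37, and 28 of them, and Zip8 knockout libraries 1 and 2 held 27 and 17. Their median depth was 9309, 7872, 9011, and 4408 UMIs per cell in control libraries 1 to 4, with 10770 and 6214 in Zip8 knockout libraries 1 and 2. Together they gave 1720650 UMIs, of which only 51099 came from control library 2. Many kept barcodes of 1 library also occurred in another (21091 of 44096), as did 34 of the 154 AEC1s, of which 2, both in control library 3, had more UMIs in the other library.

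Of the 1162 kept barcodes with at least 3 of the markers, 1008 were set aside because of an excluded gene, and 896 of these held Lamp3. Among the members, 121 had all 4 markers and 33 had exactly 3. Summed over libraries, Ager was at 20113 counts per 1000000 UMIs (CPM) in the members with 4 markers, 1955 CPM in those with 3, and 188 CPM in the 486 barcodes just outside the rule with 2 markers and no excluded gene. The order of Ager over these sets follows from the rule, which counts it among the markers. Scgb1a1, the main secreted protein of airway club cells and not used by the rule, was at 18334, 451130, and 566410 CPM in the same 3 sets.

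The label was checked against genes the rule did not use. Most members carried RNA of Pdpn, which encodes the AEC1 surface protein podoplanin (122 of 154), and Igfbp2, an insulin-like growth factor binding protein found in mature AEC1s (108). Slc39a8 was also found in 122, but a similar share of AEC2s held it, so it does not check the label. However, 23 members were rich in RNA of another epithelial cell: 19 in airway RNA (Scgb1a1 at 5% or more of the cell's UMIs, or 20 or more UMIs of the club cell gene Cyp2f2) and 7 in AEC2 RNA (Sftpc at 2% or more), with 3 in both sets. Scgb1a1 reached 62.9% of the UMIs of such a cell. Only 6 of the 23 had a UMI of Pdpn and 2 had one of Igfbp2, against 116 and 106 of the other 131. Of the 23, 20 had exactly 3 markers. They numbered 3, 1, 6, and 1 in control libraries 1 to 4 and 9 and 3 in the Zip8 knockout libraries, and they held 26.5%, 2.96%, 49.9%, and 2.35% of the AEC1 UMIs in the former and 52.7% and 36.6% in the latter. For most of these cells the data go against the name AEC1. Exceptions included the 2 with Igfbp2, which also had Pdpn, and 1 in Zip8 knockout library 1. The first, in Zip8 knockout library 2, held 30847 UMIs, with 229 of Ager, 14 of Pdpn, and 54 of Igfbp2 beside Scgb1a1 at 34.8% of its UMIs. The second, in control library 2, held 1512 UMIs, with 1 of Pdpn and 1 of Igfbp2. The cell of Zip8 knockout library 1 passed only the limit for Cyp2f2, with 23 UMIs. It had all 4 markers, 91 UMIs of Ager, 1 of Pdpn, and Scgb1a1 at 0.883% of its UMIs. The genotype comparisons are therefore given for the 154 members of the rule and, as a choice made after the data were seen, for the 131 members below these limits. Those 131 still held some such RNA, with Scgb1a1 at 0.288% to 3.64% of their UMIs.

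**Figure D1:**
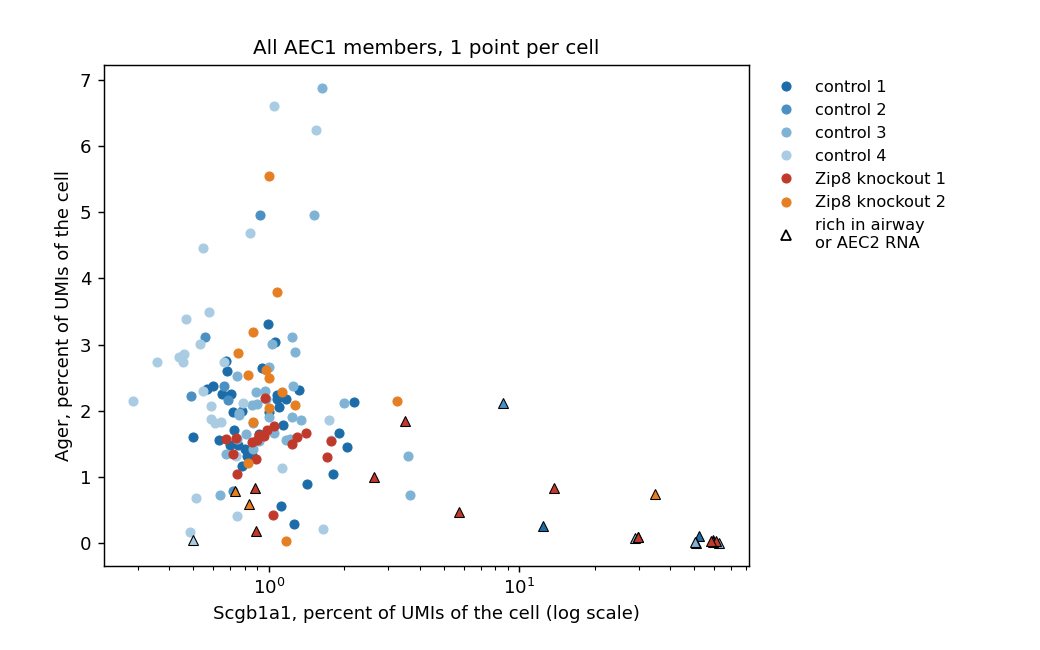
Share of UMIs from Scgb1a1 (x axis, percent, log scale) against the share from Ager (y axis, percent) in each of the 154 AEC1s, colored by library. Triangles with a black edge are the 23 cells rich in airway or AEC2 RNA, most of which sit to the right and near the bottom, with Scgb1a1 up to 62.9% of UMIs.

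In the 131 remaining cells summed club markers, led by Scgb1a1, were at 6200 to 11649 CPM by library. AEC2 markers were at 1331 to 6176 CPM and fibroblast markers at 1341 to 2400 CPM. Leukocyte RNA was sparse, at 0 to 32.4 CPM. Of the 13 leukocyte markers, 11 had no UMI in any AEC1, including Tyrobp, Laptm5, and, by the rule, Ptprc. Red cell markers were at 41241 CPM in control library 2 and between 10.6 and 253 CPM in the other libraries. In control library 2, 1223 UMIs of the hemoglobin gene Hbb-bs came from a single cell. Summed endothelial markers were at 1241 CPM in Zip8 knockout library 2 against 254 to 424 CPM in the other libraries. Esam, the most abundant of them by its mean over libraries, was at 367 CPM in Zip8 knockout library 2, within the controls at 272 to 403 CPM. Ramp2, also of this list, had a log2 fold change of 6.80 with that library alone against the controls. Some RNA was found in every gated cell type. With every cell thinned to 1000 UMIs, Sftpc was found in a median of 83.2% of the 131 AEC1s per library, 83.0% of endothelial cells, and 71.9% of fibroblasts. Sftpc was at 777 to 2879 CPM in the 131 cells by library, against medians of 1799 CPM in endothelial cells and 2504 CPM in fibroblasts.

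Zip8 knockout library 1 stood apart from the other 5 in genes listed because their level can differ between mouse strains. Gm10709 was at 361, 97.8, 166, and 148 CPM in AEC1s of control libraries 1 to 4 and at 294 CPM in Zip8 knockout library 2, with no UMI in library 1. In AEC2s it was at 0.839 CPM in library 1 and between 165 and 382 CPM in the other libraries. Trim12a, of the tripartite motif family, was also without a UMI in AEC1s of library 1 and at 0.174 CPM in its AEC2s, against 10.3 to 13.1 CPM in the AEC2s of the other libraries. Rpl29, a ribosomal protein gene whose reads may be split with processed copies, was at 680 CPM in AEC1s of library 1, at 178 and 192 CPM in control libraries 3 and 4, and at 35.8, 39.1, and 41.1 CPM in control libraries 1 and 2 and Zip8 knockout library 2. With library 1 alone against the controls in the 131 cells, 1 of the 3 was called higher and 1 lower by edgeR, in a fit that called 5.35% of genes higher and 3.46% lower. The genetic background of library 1 and its Zip8 label cannot be told apart in the results that rest on it.

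AEC1s were first compared with AEC2s of the same libraries, to describe what sets the cells apart. AEC2s were gated on Lamp3 together with Slc34a2, Abca3, and Cxcl15 and numbered 1967, 611, 1282, and 3067 in control libraries 1 to 4 and 2377 and 1599 in the Zip8 knockout libraries. Both gates chose cells by expression, so this contrast is a description with no test. Among 2306 genes at 50 CPM or more in every library in either cell type, with the gate genes left out, 292 (12.7%) were at least 2-fold higher in AEC1s in all 6 libraries and 150 (6.5%) were at least 2-fold lower. Without the cells rich in airway or AEC2 RNA these were 536 of 2521 genes (21.3%) and 177 (7.02%). Ratios below are log2 ratios of CPM within a library, with 1 CPM added to each, given as the median over libraries. The median over all 2306 genes was 0.33.

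Among 26 AEC1 markers not used by the rule, 24 reached the level for this comparison, and all 24 were at least 2-fold higher in AEC1s in every library. Igfbp2 was at 2577, 2192, 1420, and 3997 CPM in AEC1s of control libraries 1 to 4, at 87.9 and 2053 CPM in Zip8 knockout libraries 1 and 2, and between 0.376 and 1.88 CPM in AEC2s. Its ratio of 10.05 was the highest among genes that were higher in AEC1s in all libraries, and Zip8 knockout library 1 was low. Pdpn was at 938, 1076, 555, and 1341 CPM in the control libraries and 346 and 718 CPM in the others, against 4.94 to 11.6 CPM in AEC2s. Cav1, the coat protein of caveolae, the small surface pits that are abundant in AEC1s, was at 924, 1233, 634, and 1069 CPM and at 176 and 691 CPM, against 6.37 to 9.48 CPM. Every AEC1 value of these 3 genes lay above every AEC2 value. Endothelial cells also held Cav1, at a median of 954 CPM. Aqp5, a water channel, had a smaller ratio of 2.68, because AEC2s held 414 to 493 CPM of it. Emp2, which encodes a membrane protein, had a ratio of 3.85.

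**Figure D2:**
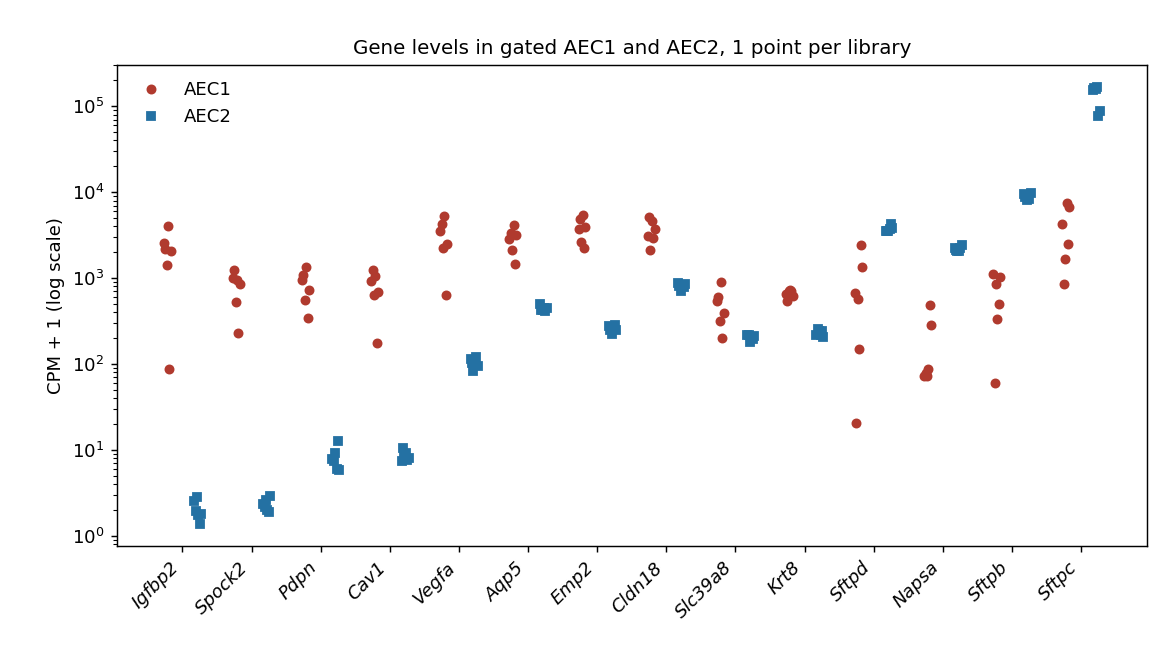
CPM plus 1 (log scale) of 14 genes in gated AEC1s (red circles) and AEC2s (blue squares), with 1 point per library and cell type for the 6 libraries. From Igfbp2 to Aqp5 the ratio of AEC1s to AEC2s narrows, and Sftpc, Sftpb, and Napsa lie the other way; the lowest Igfbp2 point of AEC1s, at 87.9 CPM, is Zip8 knockout library 1.

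Among the genes with the highest ratios after Igfbp2 were Spock2, a matrix proteoglycan, at 8.46, Bdnf, a neurotrophin, at 7.87, and Sema3e, a secreted guidance cue, at 7.37. Nt5e, the ectonucleotidase that makes adenosine, followed at 7.12, and Sema3a, another guidance cue, at 6.69. Pmp22, Ptpre, Fbln5, Col4a3, Sdpr, and 2210011C24Rik were also among the highest, with ratios from 6.63 down to 5.75.

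Genes of the basement membrane formed a large group. Of 17 such genes that reached the level, 16 were at least 2-fold higher in AEC1s in all libraries, and the median ratio of the 17 was 2.93. Col4a3 and Col4a4, which encode the collagen IV chains that pair in the thick membranes of alveoli and glomeruli, were at 441 to 1429 CPM and 520 to 1427 CPM in AEC1s, with ratios of 5.95 and 4.40. Lama3, a laminin chain, had a ratio of 5.42. Secreted signals were similar, with 12 of 16 genes 2-fold higher and none 2-fold lower. Vegfa, the growth factor for capillary endothelium, was at 3508, 4266, 2217, and 5257 CPM in AEC1s of the control libraries and 632 and 2525 CPM in those of the Zip8 knockout libraries, against 82.9 to 119 CPM in AEC2s. Ctgf and Cyr61, targets of the Hippo pathway effectors YAP and TAZ, had ratios of 5.26 and 2.89, and Wwtr1, which encodes TAZ, had a ratio of 1.40. All 5 caveolar genes that reached the level passed 2-fold, with a median ratio of 4.23.

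Transport genes were mixed. Of 12 genes for ion and water transport, 6 were at least 2-fold higher in AEC1s and 2 were at least 2-fold lower. The 6 were Aqp5, the chloride channel family members Clic3 and Clic5, and the 3 subunits of the epithelial sodium channel, Scnn1a, Scnn1b, and Scnn1g, the last with a ratio of 5.48. The 2 were Kcnj15, a potassium channel, and Atp1b1, a subunit of the sodium pump, at −2.02. Of 14 junction genes 5 passed 2-fold, led in level by Cldn18, the alveolar claudin, at 2122 to 5108 CPM.

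Some genes named for a transitional alveolar state were high in these AEC1s. Of 14 listed genes 7 reached the level, and Krt8, Krt19, Lgals3, Hbegf, and Itgb6 were at least 2-fold higher than in AEC2s. Krt8, a keratin, was at 659, 548, 700, and 735 CPM in the control libraries and 714 and 616 CPM in the others, so the groups overlapped. Outside that list Cdkn2b, an inhibitor of the cell cycle, had a ratio of 4.80. Among 17 lung epithelial transcription factors, Id3 was 2-fold higher, and Cebpa, Ehf, Id2, Tfcp2l1, and Etv5, which is needed to maintain AEC2s, were 2-fold lower. Nkx2-1, the factor common to lung epithelium, had a ratio of 0.32, close to the median of all genes.

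Surfactant and lipid genes lay the other way. Of 15 AEC2 markers that reached the level, 13 were at least 2-fold lower in AEC1s in every library, with a median ratio of −5.00. Sftpb, which encodes surfactant protein B, was at 1110, 58.7, 860, and 334 CPM in the control libraries and 496 and 1040 CPM in the others, against 8145 to 9738 CPM in AEC2s. Much of this was in the cells rich in other RNA, since without them the highest library was at 201 CPM. Genes with the lowest ratios were Lrp2, an endocytic receptor, Il33, an alarmin, Acoxl, Fads1, a fatty acid desaturase, Lcn2, Fabp5, a fatty acid binding protein, and the lysozyme gene Lyz2. Il33 had 4 UMIs in all 154 AEC1s, against 226 to 406 CPM in AEC2s. The remaining 8 of the 15 lowest, Itih4, Adam19, Sgpp2, Lrg1, Cst8, Lyz1, Hc, and Tinag, had ratios between −6.60 and −5.54.

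Slc39a8 spans 135825279 to 135888572 on chromosome 3 (mm10, plus strand). It was at 544, 607, 319, and 896 CPM in AEC1s of control libraries 1 to 4 and at 203 and 397 CPM in Zip8 knockout libraries 1 and 2, against 178 to 219 CPM in AEC2s of the 6 libraries. The ratio of AEC1s to AEC2s was 1.12 over libraries, from 0.04 in the lowest library to 2.12 in the highest, and its median was 1.64 without the cells rich in airway or AEC2 RNA. With all cells thinned to 1000 UMIs, at least 1 UMI was found in 42.9% to 57.1% of AEC1s of the control libraries and in 11.1% and 29.4% of those of the Zip8 knockout libraries. The same share was 17.2% to 20.8% in AEC2s and a median of 1.68% in endothelial cells. Unthinned, the median share was 75.7% of AEC1s and 80.5% of AEC2s, at different depths. It was the most abundant of the 14 zinc importers of its family in AEC1s. Slc39a4, the intestinal zinc importer, was next, with 331 UMIs against 719.

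The study asked what the loss of ZIP8 in AEC2s does to alveolar epithelium. The genotypes were compared in AEC1s on UMIs summed per gene and library, with edgeR's quasi-likelihood test and Benjamini-Hochberg adjustment, over 4525 genes outside the rule. CPM in this comparison carry edgeR's TMM scaling, computed over the AEC1 sums. Fold changes are of the Zip8 knockout libraries over the control libraries.

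The targeted gene itself did not pass the test. Slc39a8 was at 579, 564, 434, and 831 normalised CPM in control libraries 1 to 4 and at 261 and 406 CPM in Zip8 knockout libraries 1 and 2. Both of the latter were below every control, as was true of 9.48% of the 4525 genes, while 8.49% were above every control (18.0% in either direction). The log2 fold change was −0.86 (SE 0.36, edgeR adjusted p = 0.48). Without the cells rich in airway or AEC2 RNA the levels were 803, 731, 703, and 1038 CPM against 491 and 696 CPM, and the log2 fold change was −0.48 (SE 0.30, adjusted p = 0.596). It moved with the library left out, to −0.27 without Zip8 knockout library 1 and −0.74 without library 2 in these cells, and to −0.56 and −1.21 in all members, and it was −0.87 with these cells thinned. None of these passed. In that set 9.68% of 3503 genes lay below every control and 8.56% above (18.2% in all). In AEC2s it was −0.06 (adjusted p = 0.824), and the difference between the 2 cell types of −0.75 did not pass its test (adjusted p = 0.616). Reads of the 3′ end do not show whether the floxed part was deleted, so the gene does not settle the labels, and directions below are between libraries as labelled. Esr1, part of whose sequence the CreER transgene carries, had 0 UMIs in all AEC1s, which allows up to 5.75 CPM in the Zip8 knockout libraries and covers counting error only.

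In the AEC1s of the rule 6 genes were higher (0.133% of the 4525) and 1 was lower (0.0221%) in the Zip8 knockout libraries, 0.155% in all. A total of 433 (9.57%) had an unadjusted p under 0.05. Of the 6 higher genes 4 were of the MHC class II pathway, which presents extracellular antigens to CD4 T cells and which mouse AEC2s express at rest. H2-Aa was at 2.54, 0, 50.4, and 51.6 normalised CPM in control libraries 1 to 4 and at 553 and 315 CPM in Zip8 knockout libraries 1 and 2. The log2 fold change was 3.86 (SE 0.57, edgeR adjusted p = 0.0253). H2-Ab1 was at 2.54, 0, 40.8, and 34.4 CPM and at 292 and 231 CPM. H2-Eb1 was at 2.54, 0, 11.99, and 22.9 CPM and at 282 and 98.0 CPM. These 3 genes encode class II chains and lie within chromosome 17 of mm10 from 34257689 to 34316674. Cd74, the invariant chain that escorts class II molecules, was at 147, 72.8, 261, and 332 CPM in control libraries 1 to 4 and at 2617 and 938 CPM in Zip8 knockout libraries 1 and 2. The log2 fold changes of H2-Ab1, H2-Eb1, and Cd74 were 3.50 (SE 0.53), 4.31 (SE 0.57), and 3.06 (SE 0.49), with adjusted p of 0.0253, 0.0122, and 0.0292. For all 4 genes both Zip8 knockout libraries were above all controls. The other 7 of 11 class II genes, a list made after these values were seen, were too low to be tested.

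The other higher genes were Napsa, an aspartic protease that processes surfactant proteins, and Ptgs1, which encodes cyclooxygenase 1. Napsa was at 76.2, 72.8, 98.4, and 80.2 CPM in the control libraries and 625 and 287 CPM in the others, a log2 fold change of 2.46 (SE 0.32, edgeR adjusted p = 0.0122). Ptgs1 was at 15.2, 18.2, 21.6, and 11.5 CPM and at 155 and 63.0 CPM, a log2 fold change of 2.74 (SE 0.43, adjusted p = 0.0292), from 18 UMIs over the controls and 54 over the Zip8 knockout libraries. The lower gene was Popdc3, of the cyclic AMP binding Popeye family. It had 84 UMIs in the control libraries and 1 in the others, a raw ratio of 36.5 with a 95% counting interval from 6.38 to 1459 (edgeR adjusted p = 0.0435).

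**Figure D3:**
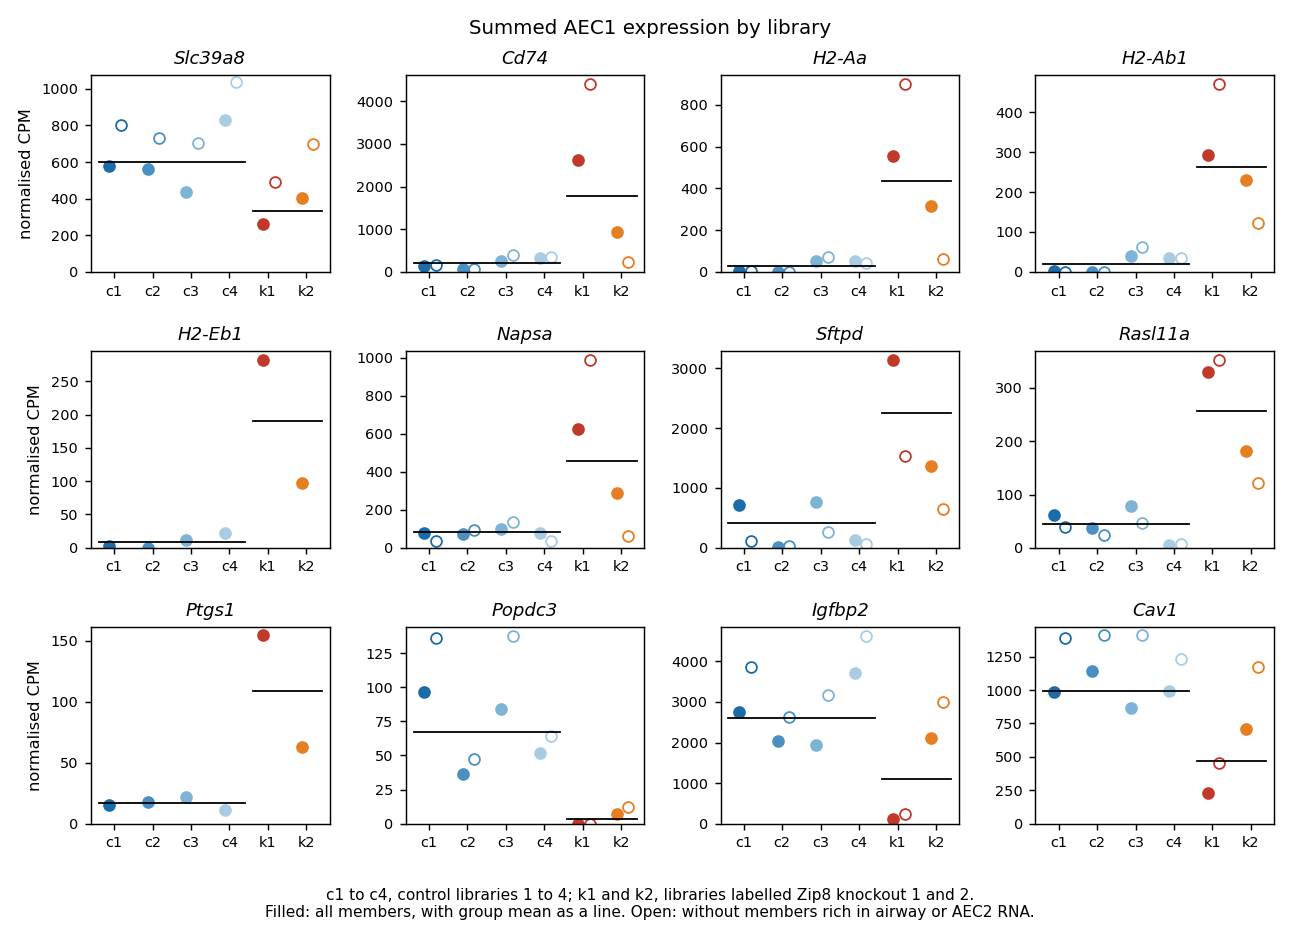
Normalised CPM of 12 genes in AEC1 sums of the 4 control libraries (c1 to c4) and the 2 libraries labelled Zip8 knockout (k1 and k2). Filled points are all members with the group mean as a line; open points leave out the cells rich in airway or AEC2 RNA, and for Cd74, H2-Aa, and Napsa the open point of k2 then lies within or close to the controls. H2-Eb1 and Ptgs1 have no open points because they were not tested in that set.

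The 7 calls held under some choices of cells and libraries and not under others. With all 4 markers required, 6 of the 7 were called again (all but Ptgs1), among 114 of 3278 genes (3.48%). Without Zip8 knockout library 2 all 7 were called, among 124 of 6510 genes (1.9%). Without the cells rich in airway or AEC2 RNA, H2-Eb1 and Ptgs1 were too low to be tested, none of the other 5 passed, and 2 other genes of 3503 (0.0571%) were called, with 406 (11.6%) at an unadjusted p under 0.05. H2-Aa was then at 898 CPM in Zip8 knockout library 1 but 61.1 CPM in library 2, between the controls at 0 to 70.7 CPM (log2 fold change 3.86, SE 0.76, adjusted p = 0.0985). Cd74 was at 4401 and 232 CPM against 70.8 to 397 CPM, and Napsa at 988 and 61.1 CPM against 35.8 to 134 CPM, so that library 2 overlapped the controls for these 3 genes. The log2 fold changes were 3.16 for Cd74 (SE 0.71), 2.92 for Napsa (SE 0.67), and 3.43 for H2-Ab1 (SE 0.65), about as large as in all members. No UMI of Popdc3 lay in the cells rich in other RNA, so its 84 UMIs in the controls and 1 in the Zip8 knockout libraries were unchanged. H2-Ab1 did not overlap, at 470 and 122 CPM against 0 to 62.9 CPM (adjusted p = 0.0985), but 9 of its 10 UMIs in library 2 lay in 1 cell. That cell, of 3077 UMIs, had 3 of the 4 markers, 1 UMI of Ager, and none of Pdpn, Aqp5, or Igfbp2. In library 2, 115 UMIs of Cd74 lay in its 3 cells rich in other RNA. Without Zip8 knockout library 1, in all members, the log2 fold change was 3.38 for H2-Aa (adjusted p = 0.771), 2.13 for Cd74 (adjusted p = 0.852), and 1.76 for Napsa (adjusted p = 0.235), and none of the 7 was called. In the 131 cells without that library the log2 fold changes were 0.77 for H2-Aa, −0.25 for Cd74, −0.30 for Napsa, and 2.00 for H2-Ab1 (adjusted p of 0.909 or more), so the fold changes of H2-Aa, Cd74, and Napsa in these cells rested on library 1. In all members, DESeq2 called Cd74, H2-Ab1, H2-Eb1, and Napsa and not the other 3 of the 7, and the stricter cell filter lost Popdc3. With cells thinned, which left 525 genes to test, none of the 7 was called. Without control library 3 the calls of Cd74, Ptgs1, and Popdc3 were lost, and without control library 4 that of Ptgs1. Without control library 1 or 2 no gene was called, at fold changes close to those with all libraries (H2-Aa 3.33 and 3.74, H2-Ab1 2.97 and 3.39, Cd74 2.93 and 2.86).

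Within Zip8 knockout library 1 the class II signal was spread over cells. Among its 18 AEC1s not rich in other RNA, 15 had a UMI of Cd74, 13 of H2-Aa, 16 of Napsa, and 17 of Clu, which encodes the chaperone clusterin. In control library 1, at a similar depth, 16 of 35 had one of Cd74, 1 of H2-Aa, 9 of Napsa, and 5 of Clu. In control library 3, also of similar depth, 19 of 31 had one of Cd74, 6 of H2-Aa, 6 of Napsa, and 13 of Clu, and in Zip8 knockout library 2 these were 7, 1, 3, and 4 of 14. Class II RNA outside AEC1s was also high in this library. In its endothelial cells H2-Aa was at 327 CPM and Cd74 at 1020 CPM, against 78.9 to 180 CPM and 111 to 286 CPM in the control libraries. Zip8 knockout library 2 was at 137 and 237 CPM. In fibroblasts Cd74 was highest in control library 4, at 421 CPM, and at 236 CPM in Zip8 knockout library 1. Napsa in endothelial cells was at 49.9 CPM in Zip8 knockout library 1 and at 12.8 to 51.4 CPM in the controls. The part of RNA shared between cells in these values was not tested.

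The 2 genes called without the cells rich in other RNA were higher in the Zip8 knockout libraries. Sftpd, which encodes the collectin surfactant protein D, was at 108, 23.6, 259, and 71.6 CPM in control libraries 1 to 4 and at 1534 and 648 CPM in Zip8 knockout libraries 1 and 2 (log2 fold change 3.02, SE 0.47, edgeR adjusted p = 0.0369). Both were above every control. Of the 14 AEC1s of library 2, 5 had a UMI of Sftpd, and 1 of these held 49 of the 53 UMIs. The other 13 cells held 4 UMIs, or 55.5 CPM before TMM scaling, within the 20.2 to 232 CPM of the controls, so that the position of library 2 above the controls came from 1 cell. In all members, in which the cells rich in other RNA also held Sftpd, its log2 fold change was 2.37 (adjusted p = 0.376). Rasl11a, a small GTPase of the Ras family, was at 39.4, 23.6, 47.2, and 7.16 CPM and at 352 and 122 CPM (log2 fold change 2.88, SE 0.46, adjusted p = 0.0369). Of its 10 UMIs in library 2, 6 lay in the cell that held the 49 UMIs of Sftpd. The other 4 gave 55.5 CPM before TMM scaling, against 6.33 to 42.2 CPM in the controls. Without control library 1, 2, or 4 neither Sftpd nor Rasl11a passed (adjusted p from 0.102 to 0.34), at log2 fold changes of 2.86 to 2.91 and 2.63 to 2.98. Rasl11a also missed without control library 3 (3.18, adjusted p = 0.0525), and with scaling to total UMIs both missed (adjusted p = 0.0551). Without Zip8 knockout library 1, where 3 genes (0.0767%) were higher, Sftpd passed (log2 fold change 2.14, adjusted p = 0.0275), with the 1 cell included, and Rasl11a did not (1.80, adjusted p = 0.909).

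Markers of the AEC1 state were compared as a list. None of the 26 was called in either direction, and 25 of the 26 had a log2 fold change below 0, with a median of −0.41 against −0.00081 over all genes. Under the other scalings 24 and 26 were below 0. In the 131 cells these were 21 of 26 and −0.33. With Zip8 knockout library 1 alone against the controls, 10 of the 26 were called lower in the 131 cells and the median was −0.69, in a fit that called 156 of 4503 genes lower (3.46%) and 241 higher (5.35%). With library 2 alone none of the 26 was called, 21 were below 0, and the median was −0.10. Igfbp2 was at 3867, 2619, 3167, and 4630 CPM in control libraries 1 to 4 and at 228 and 3005 CPM in Zip8 knockout libraries 1 and 2 in the 131 cells (log2 fold change −1.16, SE 0.63, edgeR adjusted p = 0.522). Of the 18 cells of library 1, 2 had a UMI of Igfbp2, and 1 of these held 31 of the 33 UMIs. In the other libraries 78.6% to 100% of cells had one. Cav1 was at 1387, 1416, 1415, and 1231 CPM and at 456 and 1173 CPM (log2 fold change −0.76, SE 0.35, adjusted p = 0.426). With library 1 alone its log2 fold change was −1.57 (adjusted p = 0.000549) and with library 2 alone −0.24 (adjusted p = 0.935). In all members these were −2.13 (adjusted p = 0.0247) and −0.48 (adjusted p = 1). By contrast, Emp2 was at 5612, 5828, 5722, and 6319 CPM and at 5161 and 5950 CPM, and Clic5, at 2515 CPM in library 1, lay within its controls.

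**Figure D4:**
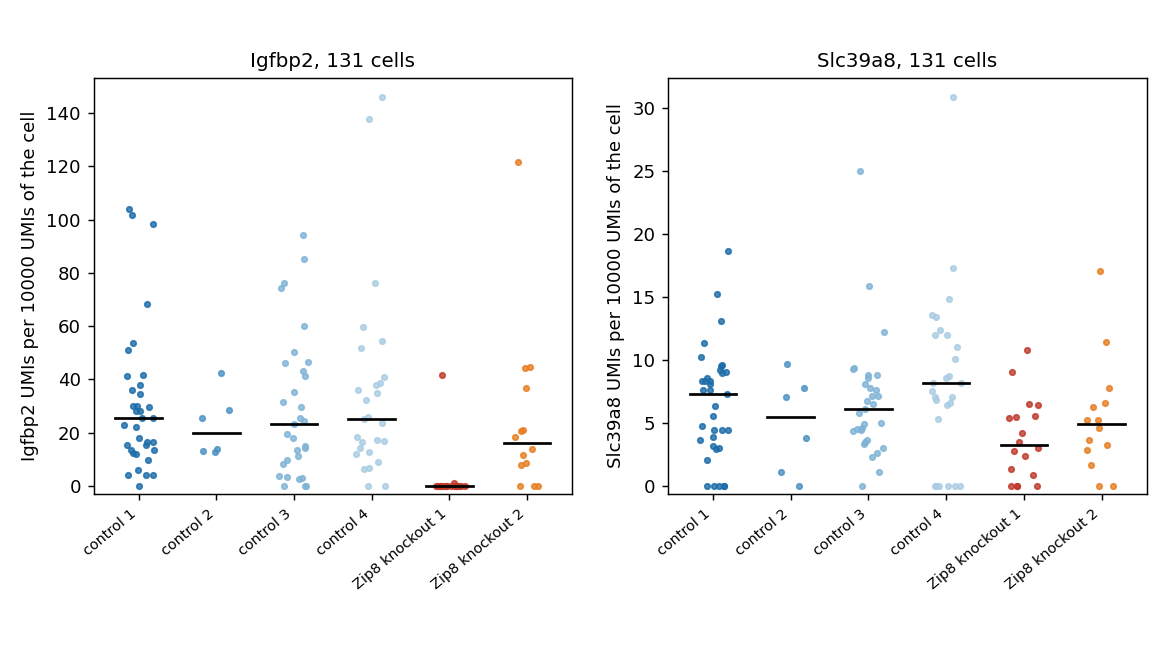
UMIs of Igfbp2 (left) and Slc39a8 (right) per 10000 UMIs of the cell in the 131 AEC1s not rich in airway or AEC2 RNA, by library, with 1 point per cell and the median as a black line. The median of Igfbp2 is 0 in Zip8 knockout library 1, where 2 of 18 cells had a UMI, and above 0 in the other 5 libraries.

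With all libraries the other lists gave few calls. Of 213 tested genes of the fixed lists, which leave out class II, only Napsa was called, against 0.155% of all 4525. In the 131 cells the AEC2 marker Sftpd was called. AEC2 markers had a log2 fold change above 0 in 13 of 14 genes, with a median of 0.67, and in 7 of 11 genes, with a median of 0.28, in the 131 cells. In these cells 13 of 15 were above 0 with Zip8 knockout library 1 alone, with a median of 0.58. With library 2 alone 5 were above 0 and 6 below, with a median of −0.049. Secreted signals were below 0 in 16 of 20 genes in both sets of cells, with a median of −0.64 in all members and −0.42 in the 131 cells. Vegfa was at −1.20 (SE 0.48, edgeR adjusted p = 0.459) and, in the 131 cells, −0.99 (SE 0.34, adjusted p = 0.322). Among zinc importers 4 of 5 were below 0 in both sets, Slc39a8 included. Of 9 class I and peptide loading genes 6 were above 0, and 5 of 7 in the 131 cells. H2-K1, a class I chain, was at 0.63 (SE 0.31, adjusted p = 0.522) and at 0.87 (SE 0.28, adjusted p = 0.302). Of 11 targets of p53 8 were above 0, with a median of 0.29, but in the 131 cells these were 3 of 5 and 0.026. Cdkn1a, an inhibitor of the cell cycle, was at 2.27 (SE 0.44, adjusted p = 0.0901) and too low to be tested in the 131 cells. Transitional genes were split 7 to 2 in all members and 3 to 3 in the 131 cells. Of the 7 caveolar genes 6 were below 0 in both sets, with medians of −0.24 and −0.096. Of 21 immediate early and heat shock genes 12 were above 0, and 13 of 19 in the 131 cells. The latter differed by library, at 16 of 20 and a median of 0.51 with Zip8 knockout library 1 alone. With library 2 alone they were 5 of 20, with a median of −0.47. With Zip8 knockout library 1 alone in the 131 cells, against the same 5.35% higher and 3.46% lower, more list genes passed. Among these were the metallothionein gene Mt1 at 2.81 and, of the interferon response, Ifit1 at −6.72, Ifit3 at −2.69, and Bst2 at 1.26. Scnn1b and Scnn1g were at −1.85 and −1.70. These genes and those named next were chosen after their values were seen. Of 15 AEC2 markers 4 were higher (Sftpd, Napsa, Muc1, and Scd1), as were 3 of 8 class I and peptide loading genes (H2-K1, H2-T23, and Psmb8) and the mesothelial marker Msln. Of 8 transitional genes 7 were above 0, with a median of 0.49, among them Areg at 4.87, Cdkn1a at 2.04, and Krt18 at 1.07. Itgb6 was at −1.04. In library 1, 51 UMIs of Areg lay in 1 cell, which had 3 of the 4 markers and no UMI of Pdpn, Igfbp2, or Cav1. Of 22 secreted signals 2 were higher and 5 lower, with Vegfa at −1.87 (SE 0.26) among the latter. Of 7 caveolar genes 3 were lower (Cav1, Cav2, and Sdpr) and 1 higher (Prkcdbp), and of 20 immediate early and heat shock genes 4 were higher and 1 lower. With library 2 alone the calls in these lists were Sftpd and the endothelial marker Ramp2. With all libraries, proliferation genes were too low to be tested. In all members 9 were tested with Zip8 knockout library 1 alone and 3 with library 2 alone, and all were below 0. Summed, the list was at 641 CPM in control library 3 and at 0 to 10.7 CPM in the other libraries. Without the cells rich in other RNA control library 3 was at 7.04 CPM, so these directions rested on such cells of that library. RNA of the Y-linked genes Ddx3y and Eif2s3y differed by −0.06 and −0.03, and neither passed.

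The genotype difference was then tested for a difference between AEC1s and AEC2s of the same libraries. Over 11851 genes, 72 were more positive in AEC1s (0.608%) and 29 more negative (0.245%), 0.852% in all, and 8.11% had an unadjusted p under 0.05. In the 131 cells 55 (0.47%) and 21 (0.179%) of 11706 were called, 0.649% in all, with 7.01% at an unadjusted p under 0.05. H2-Eb1, H2-Aa, H2-Ab1, and Cd74 were among the 72, with differences of 4.05, 3.65, 3.30, and 2.74 on the log2 scale (edgeR adjusted p = 5.08e-11, 1.63e-09, 4.31e-08, and 0.000271). In AEC2s the same genes had log2 fold changes of 0.21, 0.30, 0.32, and 0.29, none past the threshold. The differences for the 4 genes were 3.79, 3.09, 2.93, and 1.98 in the 131 cells, and each passed (adjusted p of 0.0353 or less). In these cells without Zip8 knockout library 1 they were 0.48, 0.46, 1.79, and −0.41 and none passed (adjusted p of 0.894 or more), while without library 2 they were 4.91, 4.36, 3.58, and 3.74 and each passed. The counts over all genes were then 23 more positive and 1 more negative without library 1, and 239 and 100 without library 2. Napsa, Sftpd, and Rasl11a also differed between the cell types in all members. In the 131 cells without Zip8 knockout library 1 their differences were −0.40, 2.26, and 1.72, so that of Napsa turned below 0. Each was larger without library 2 than without library 1. Both sums of a library come from the same mice, and the library was a term in the model. In all members the counts without Zip8 knockout library 1 were 14 and 3, and without library 2 they were 124 and 87.

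The share of AEC1s was compared last. AEC1s were 0.520%, 0.0736%, 0.502%, and 0.323% of kept barcodes in control libraries 1 to 4 and 0.457% and 0.318% in Zip8 knockout libraries 1 and 2. The Zip8 knockout libraries lay within the controls, at means of 0.388% ± 0.0983 (SD, n = 2) and 0.355% ± 0.208 (SD, n = 4) (exact two-sided permutation test, p = 1). Control library 2 was low, with an exact 95% binomial interval from 0.0296% to 0.152%. Of AEC1s and AEC2s together, AEC1s were 1.90%, 1.13%, 2.81%, and 0.905% in the controls and 1.12% and 1.05% in the others, which overlapped (exact permutation test, p = 0.533). In the 131 cells the mean shares were 0.284% against 0.319% of kept barcodes (exact permutation test, p = 0.867) and 0.81% against 1.49% of AEC1s and AEC2s (exact permutation test, p = 0.133). By the second of these shares both Zip8 knockout libraries, at 0.752% and 0.868%, lay below the lowest control, at 0.873%. The smallest p that 15 splits allow is 0.0667. These are shares of cells that survived dissociation and enrichment and passed the rule, and they do not measure AEC1s in the lung.

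**Figure D5:**
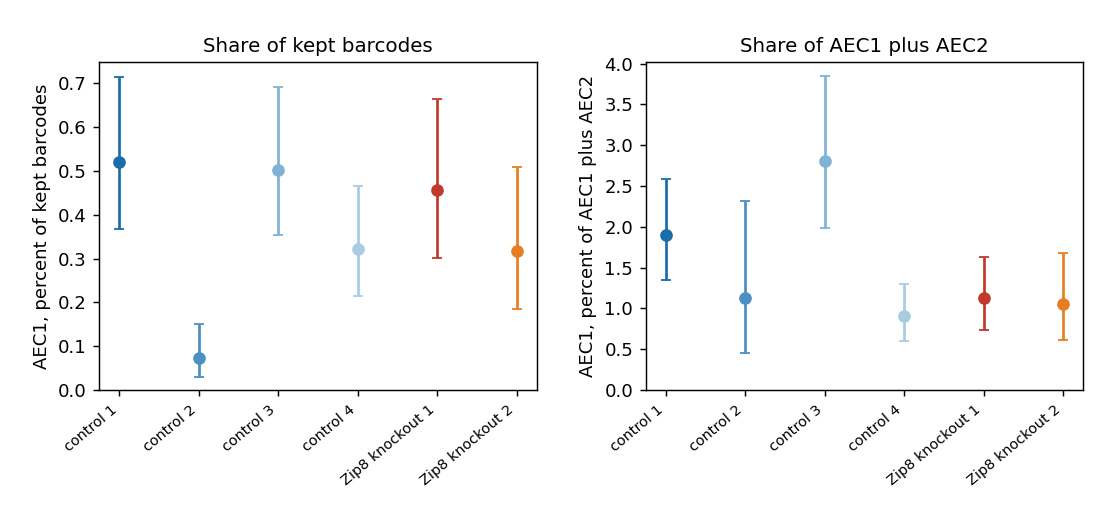
AEC1s as a percent of kept barcodes (left) and of AEC1s plus AEC2s (right) in each library, with exact 95% binomial intervals that cover counting error only. On the left, the 2 Zip8 knockout libraries at 0.457% and 0.318% lie within the range of the 4 controls.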

How the data were processed

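The authors aligned reads to mm10 with Cell Ranger (3.1.0, per the file headers) and deposited raw UMI counts of 27998 genes for the barcodes it called as cells, before their later filters. The members and gene lists were chosen with earlier results of these data known. Counts of gated cells were summed per library and tested with edgeR 4.0.16 (filterByExpr, TMM, glmQLFTest, Benjamini-Hochberg adjustment, threshold 0.05). On simulated AEC1 sums with 200 of 4222 genes changed by 2 on the log2 scale, 189 were recovered, but with 200 of 4226 changed by 1 only 27 were. The changed genes were drawn only from the more abundant ones, with the same change in both Zip8 knockout libraries. These counts therefore do not hold for low genes or for genes in which the 2 libraries differ. DESeq2 1.42.0, other scaling, other gates, thinning, and leaving out each library were alternatives. Shares were compared over all 15 splits. Likely doublets (0.8% per 1000 barcodes, scored from simulated pairs) were kept, and 2 of 154 AEC1s were among them. Named genes were the listed genes, Slc39a8, up to 10 called genes in each direction, and the 15 highest and lowest ratios of AEC1s to AEC2s among genes at 50 CPM or more. Other genes named were chosen after their values were seen. Positions are from GENCODE (mm10). Reads cannot be split between class II genes beyond the authors' counting. Age and treatment come from the methods of the study. One gene that met the rule for names is not reported here.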

Additional observations from a re-analysis of the deposited data

Results flagged for a closer look

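The genotype difference in AEC1s differed from that in AEC2s by the test of the difference itself, with edgeR's adjusted p, for 101 of 11851 genes (0.852%). Among these were 8 of the genes named above. The differences on the log2 scale (AEC1s minus AEC2s) were 4.05 for H2-Eb1, 3.65 for H2-Aa, 3.30 for H2-Ab1, 2.74 for Cd74, 2.60 for Sftpd, 2.36 for Rasl11a, 2.32 for Napsa, and 2.17 for Ptgs1, and each was higher in both Zip8 knockout libraries than in the controls in AEC1s of the rule. In the 131 cells not rich in airway or AEC2 RNA, H2-Aa, Cd74, and Napsa of library 2 overlapped the controls, and H2-Eb1 and Ptgs1 were not tested. Of the UMIs of library 2 in these cells, 1 cell held 49 of 53 of Sftpd and 6 of 10 of Rasl11a. Another held 9 of 10 of H2-Ab1. For H2-Eb1, 11 UMIs of library 2 lay in 1 cell rich in airway RNA. No control library stood far from the other controls by Dixon's test in the 19 values that were checked.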

How the results depend on the processing

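The counts of genes called in AEC1s moved with most choices. Genes higher and lower numbered 6 and 1 in all members, 91 and 23 with all 4 markers required, 86 and 59 with no filter on low counts, 58 and 7 with the replicate block, 13 and 1 with scaling to total UMIs, 4 and 0 with DESeq2, 6 and 0 with a stricter cell filter, 1 and 0 with cells thinned, and 2 and 0 without members rich in airway or AEC2 RNA. Leaving out 1 library gave 0 to 51 higher and 0 to 73 lower, with 0 and 0 without control library 1 or 2, 5 and 0 without control library 3, 5 and 1 without control library 4, 1 and 0 without Zip8 knockout library 1, and 51 and 73 without library 2. A lone library was assumed to vary like the controls. For the difference between AEC1s and AEC2s these ranges were 14 to 124 and 3 to 87, with 30 and 16 without control library 1 and 17 lower without control library 3. Replicate numbers 1 and 2 were shared by both groups, and deviations of same-numbered libraries correlated at 0.0769 and 0.163. The deviations of 2 Zip8 knockout libraries from their mean mirror each other, at −0.0769 and −0.163 for the other number. These values therefore cannot decide whether the samples were paired. Numbers 3 and 4 occurred only among the controls, so the difference in the block fit rests on libraries 1 and 2 of each group. Its p-values do not measure the spread over all controls. Without members rich in other RNA the block gave 5 higher and 1 lower, with H2-Aa (edgeR adjusted p = 0.00197), H2-Ab1 (0.00235), and Cd74 (0.0379) past the threshold. Control libraries 1 and 2 had no UMI of H2-Ab1 in these cells. Sftpd passed with the block (edgeR adjusted p = 0.00385), but Rasl11a, called in these cells without it, did not (0.0541). Genes at least 2-fold higher in AEC1s than in AEC2s numbered 503 with all 4 markers, 536 without members rich in other RNA, and 294 to 463 with 1 library left out. The difference in the share of kept barcodes, 0.0331 percentage points, turned to −0.0526 with the gate applied after thinning, −0.0145 with all 4 markers, −0.00551 without barcodes deeper elsewhere, −0.0351 without members rich in other RNA, and ranged from −0.0606 to 0.103 with 1 library left out. Sftpc turned from 0.48 to −0.38 without members rich in other RNA and ranged from −0.21 (without Zip8 knockout library 2) to 0.98 with 1 library left out, and Gt(ROSA)26Sor, −0.11 in all members, from −0.49 to 0.36 (without library 1). None of these passed the test. The cause of these changes was not tested beyond the smaller number of cells or libraries. Control library 2, with 7 AEC1s and 51099 UMIs, gave the least depth.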
